A study of Mus musculus with 6 samples.

Results

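The mouse miR-297, miR-466, miR-467 and miR-669 families are groups of closely related microRNAs whose hairpins are rich in alternating TG and AC bases. Their members were taken by symbol, as every GENCODE M21 miRNA gene named Mir297, Mir466, Mir467 or Mir669, alone or followed by a letter or hyphen. The rule gave 81 of the 1174 named miRNA hairpins, with 6 in miR-297, 28 in miR-466, 17 in miR-467 and 30 in miR-669. Small RNA had been sequenced from the sensorimotor cortex of male C57BL/6J mice at postnatal day 90. In 3 control mice the cervical cord was only laid bare, and in 3 SCI mice it was cut through at C5/6, with all cortices taken 7 days after surgery. Samples were collected from single animals, and the mice carried no transgene or allele named in the labels.

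MicroRNAs are cut from hairpin RNAs as short duplexes, and the strand that is kept pairs with target mRNAs mainly through its seed, bases 2 to 8. Most genes of these 4 families lie in a tandem array inside Sfmbt2, a Polycomb-group gene that is imprinted in the mouse, and the array is known for its activity in embryonic stem cells and placenta. Because alternating TG and AC runs are common in mouse transcripts, a short read from such a hairpin can also be found in unrelated genes.

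The libraries held 10585062 to 24480988 reads of 17 to 34 nt, of which 73.3% to 79.4% were found in named hairpins. Neuronal miRNAs were abundant, with miR-128-3p at 71030 to 92130 CPM (reads per 1000000 reads counted in miRNA arms, scaled by TMM). The pluripotent-cell miRNAs miR-291a-3p, miR-294-3p and miR-295-3p had 0 to 3 reads in each library. Values for each library follow in the order of the replicate numbers. Reads of 30 to 34 nt took 1.33%, 0.611% and 0.543% of controls 1 to 3 and 0.584%, 3.66% and 2.31% of SCI 1 to 3, so SCI 2 and SCI 3 stood apart and SCI 1 lay among the controls. The liver miRNA miR-122-5p had 54 to 96 reads in each. Control 1 differed most from the other libraries over 443 arms, with chi-square values of 860.1 to 1597 per degree of freedom against 175.1 to 476.1 among the others.

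The most abundant deposited reads of arms named below for many reads or a small p are printed first, since the families differ from each other by few bases. Each is a read from the libraries, not an annotated mature sequence, and capitals mark bases 2 to 8.
miR-467a/b-5p: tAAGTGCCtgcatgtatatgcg
miR-467d-5p: tAAGTGCGcgcatgtatatgc
miR-467e-5p: aTAAGTGTgagcatgtatatgt
miR-669a/p-5p: aGTTGTGTgtgcatgttcatgtct
miR-669f-5p: aGTTGTGTgtgcatgtgcatgt
miR-669c-5p: aTAGTTGTgtgtggatgtgtgt
miR-669d-5p: aCTTGTGTgtgcatgtatatgt
miR-669a/o-3p: aCATAACAtacacacacacgtat
miR-669f-3p: cATATACAtacacacacacgtat
miR-466/b/c/e/p-3p: aTACATACacgcacacataaga
miR-466d-3p: tATACATAcacgcacacataga
miR-466q-3p: tGTGCACAcacacacatacgt
The miR-669 5p reads run through TG-rich sequence, and the 3p reads of miR-466 and miR-669 through AC-rich sequence. The read of miR-669a/p-5p and that of miR-669f-5p share the seed GTTGTGT, and so does miR-669l-5p. The read of miR-466q-5p, a plain TG repeat found in 1658 other genes, is not printed, nor is that of miR-669b/m-5p.

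The array holds 71 of the 81 hairpins, all in introns of Sfmbt2 on its plus strand, at chr2:10466663-10518279 of GRCm38 within Sfmbt2 at chr2:10370510-10595253. It spans 51.6 kb, and in 2 of the 7 annotated Sfmbt2 transcripts all 71 lie in a single intron. The other 10 hairpins are scattered: Mir466q lies in an intron of Tnik, which encodes a kinase, on chromosome 3, and no other one has a host gene on its strand. At least 1 read was found in 79 hairpins. Mir669g and Mir669n had 0 reads in 115958638, which allows up to 0.0259 reads per 1000000.

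Copies could not be told apart in most of the array. Only 36 hairpins had a read found in no other member. The 148 arms with reads were joined where they had the same most abundant read, and the joint names list the copies. After reads found in several joined arms were left out, 60 arms kept a read. The arm miR-467a/b-5p stands for 11 hairpins, which share most of their reads, up to 5878 in each. Family reads numbered 18584 over the 6 libraries in 631 distinct sequences, and miR-467a/b-5p took 29.9% of them.

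**Figure D1:**
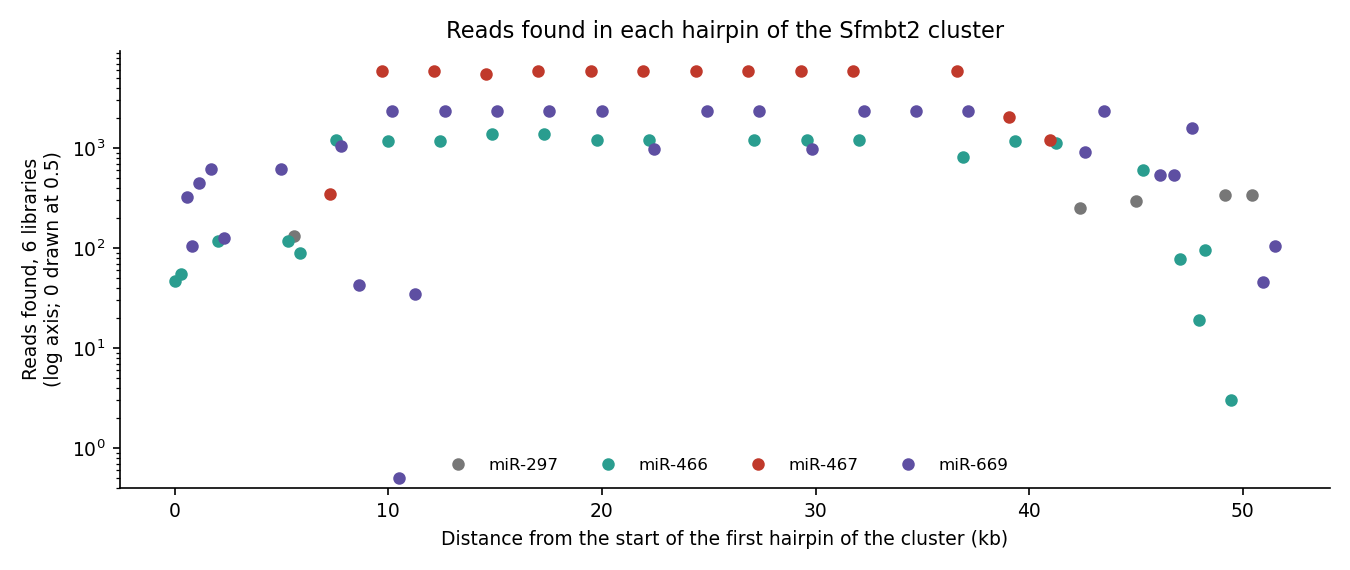
Reads found in each of the 71 hairpins of the Sfmbt2 array (log axis, sum of 6 libraries, a read counted in every hairpin that holds it) against distance from the first hairpin in kb, coloured by family. The miR-467 copies form a level row near 5878 reads because the same reads are found in each, and the point drawn at 0.5 is Mir669g with 0 reads.

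The 5p strand carried nearly all reads in some hairpins and few in others. In Mir467a-3, 94.4% of the reads were from the 5p arm, and in Mir467e 98.6%. Mir669c gave 902 reads from its 5p arm and 1 from its 3p arm. The miR-466 hairpins Mir466b-1 and Mir466d leaned the other way, with 7.39% and 6.60% of the reads from the 5p arm. Not every miR-466 hairpin did so. Mir669a-4 was mixed at 42.4% and Mir669f at 42.8%. Each value sums the 6 libraries and counts only reads found in miRNA genes and no other class.

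Among arms with at least 100 reads, 22 in number, read length separated 1 arm from all others. In 21 of them 88.0% to 100% of the reads were of 20 to 24 nt, the length of miRNAs, with mean lengths from 21.2 to 23.1 nt. In miR-466q-5p only 42.6% were, its mean length was 24.7 ± 2.04 nt (SD over reads), and its most abundant read made up 17.9% of its 481 reads. All 481 of those reads were also found in genes of other classes. A further 542 reads of this arm were also found in other merged arms and were left out of these values. Of these 22 arms, 15 had at least 99% of their reads in members alone and 6 had at least 99% in other miRNA genes as well.

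The length of family reads found in miRNA genes only peaked at 22 nt in every library, with 45.7% to 50.4% of the reads at that length. Reads of 20 to 24 nt made up 97.6%, 96.8% and 97.0% of these reads in controls 1 to 3 and 96.4%, 97.5% and 96.5% in SCI 1 to 3. The groups overlapped (two-sided exact permutation test, p = 0.5). Among family reads also found in genes of other classes, 58.2%, 62.8% and 58.7% of the control reads and 57.6%, 49.4% and 51.3% of the SCI reads were of that length (exact permutation p = 0.1, the smallest that 3 against 3 allow). Their 95% Wilson intervals were up to 27.8 percentage points wide, against up to 1.73 for reads in miRNA genes only. Intervals and limits of this kind cover counting error only.

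**Figure D2:**
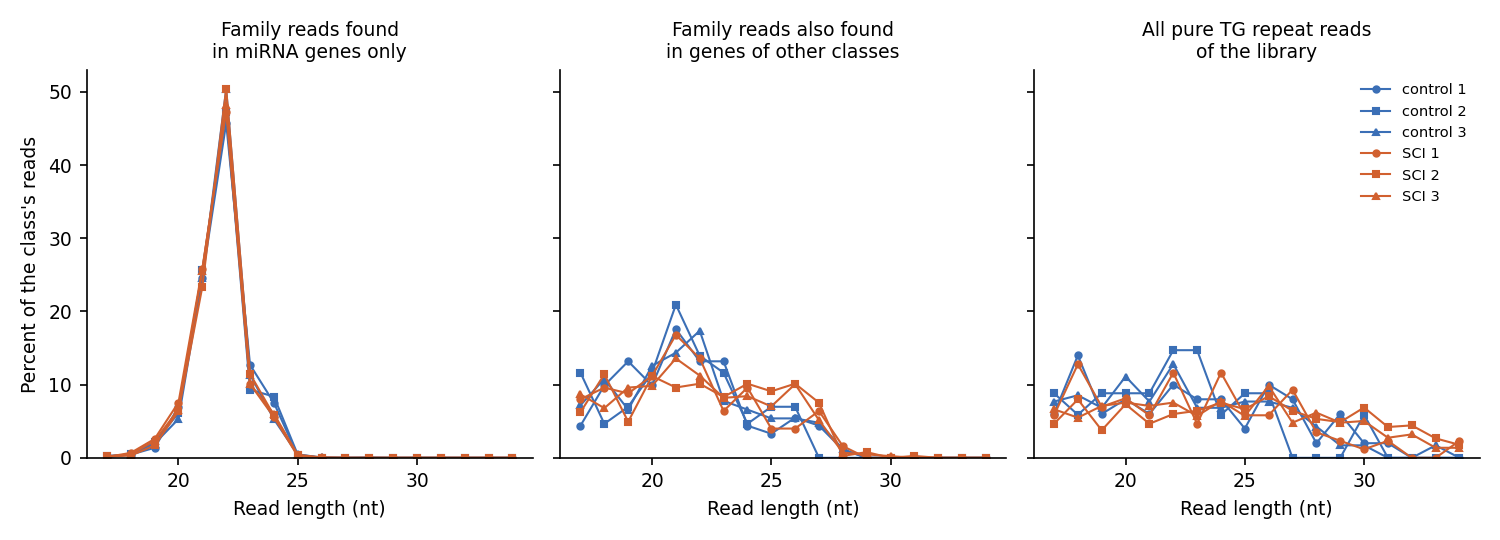
Length of reads in nt against the percent of reads of each class, with 1 line per library (blue control, orange SCI): family reads found in miRNA genes only, family reads also found in genes of other classes, and every read of the library made of TG alone. The first class has a sharp peak at 22 nt in all 6 libraries, and the other classes have no such peak.

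Where a family read was also found outside the 81 members, it was mostly in other miRNA genes. In all, 52.6%, 62.2% and 58.6% of the family reads of controls 1 to 3 and 57.3%, 64.0% and 61.1% of those of SCI 1 to 3 were found in another GENCODE gene (exact permutation p = 0.5). Other miRNA genes alone accounted for 49.3% to 59.7%. Nearly all of those reads were found in unnamed miRNA genes inside Sfmbt2 on its strand, which held 48.6% to 59.5% of family reads. There are 48 such genes, of which 29 had reads. One of them, Gm25022, was matched by 5878 reads. Over all family reads, 139 other miRNA genes and 3143 genes of other classes were matched, with up to 2371 other genes for 1 read. Only exons were searched in those genes, so the shares are lower limits.

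The share of family reads also found in genes of other classes was 3.26%, 2.56% and 3.88% in controls 1 to 3 and 4.74%, 10.8% and 11.8% in SCI 1 to 3. Every SCI library lay above every control library (exact permutation p = 0.1, difference 5.90 percentage points), and SCI 1 lay close to control 3. Without SCI 1 the difference was 8.09, and without SCI 3 it was 4.54. Reads found in a hairpin of the Sfmbt2 array took 96.0%, 97.1% and 95.0% of family reads in controls 1 to 3. In SCI 1 to 3 they took 93.3%, 87.4% and 86.9%, lower in every SCI library (exact permutation p = 0.1). The remaining family reads were found only in hairpins outside the array.

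The summed level of the 4 families did not separate the groups. On the scale of RPM (reads per 1000000 reads of the library), family reads took 121.6, 158.5 and 176.1 RPM in controls 1 to 3 (152.1 ± 27.8, SD, n = 3) and 180.4, 152.0 and 181.2 in SCI 1 to 3 (171.2 ± 16.6, n = 3). Control 1 was lowest, and SCI 2 lay below control 2 and control 3 (exact permutation p = 0.5). The 95% Wilson intervals were at most 15.2 RPM wide. Leaving out control 1 took the difference from 19.1 to 3.92 RPM.

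Taken by family, miR-466 was the 1 family whose groups did not overlap. It took 22.4, 17.8 and 31.0 RPM in controls 1 to 3 and 37.1, 37.6 and 45.8 in SCI 1 to 3. The difference of 16.4 had an exact permutation p of 0.1, the smallest possible, and 0.4 adjusted over the 4 families. Counting only reads found in miRNA genes, miR-466 took 18.7, 13.8 and 24.6 RPM in the controls and 28.8, 21.3 and 24.9 in SCI libraries, which overlapped. The difference was then 5.94 (exact permutation p = 0.2). The count of miR-467 reads was 54.5, 91.2 and 92.3 RPM in the controls and 92.4, 71.4 and 82.5 in SCI libraries (exact permutation p = 0.8). The count of miR-669 reads was 40.8, 48.2 and 49.1 against 47.7, 39.7 and 48.4 (exact permutation p = 0.6). The smallest family, miR-297, had 4.36, 1.61 and 4.17 against 4.17, 4.02 and 4.97 (exact permutation p = 0.5). Adjusted over the 4 families, these 3 values were all 0.8.

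Reads made of TG alone that were found in the hairpins are a part of the miR-466 reads counted above. Leaving them out did not change the values of miR-297, miR-467 and miR-669. These TG reads took 1.96, 3.02 and 4.41 RPM in controls 1 to 3 and 5.26, 13.5 and 16.6 in SCI 1 to 3 (exact permutation p = 0.1). The 95% Wilson interval of SCI 1, 4.21 to 6.58, overlapped that of control 3, 3.65 to 5.33, while SCI 2 and SCI 3 lay above all other libraries. The difference of 8.65 RPM was 11.9 without SCI 1 and 6.23 without SCI 3. Without these reads, miR-466 took 20.5, 14.7 and 26.6 RPM in the controls and 31.8, 24.1 and 29.2 in SCI libraries (exact permutation p = 0.2), with SCI 2 below control 3.

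In the libraries as a whole, TG reads took 2.18, 3.21 and 4.78 RPM in controls 1 to 3 and 5.88, 19.3 and 21.9 in SCI 1 to 3. They had no sharp peak at miRNA length. Reads made of AC alone, the complementary repeat, took 1.09, 1.04 and 2.37 against 1.91, 5.73 and 6.83 RPM, with SCI 1 below control 3. Reads of AG alone were not higher in SCI libraries, at 3.31, 4.63 and 4.66 against 1.30, 4.10 and 2.26 RPM, and the groups overlapped. Those of TC alone, the complement of AG, took 0.785, 0.661 and 0.980 against 1.16, 3.67 and 1.76 RPM, higher in every SCI library (exact permutation p = 0.1). Reads found only antisense in the hairpins took 0.872, 0.850 and 1.76 against 2.05, 3.67 and 5.07 RPM, again highest in SCI 2 and SCI 3. Those are the libraries with most reads of 30 to 34 nt, and the part of these long reads in the TG values was not tested.

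**Figure D3:**
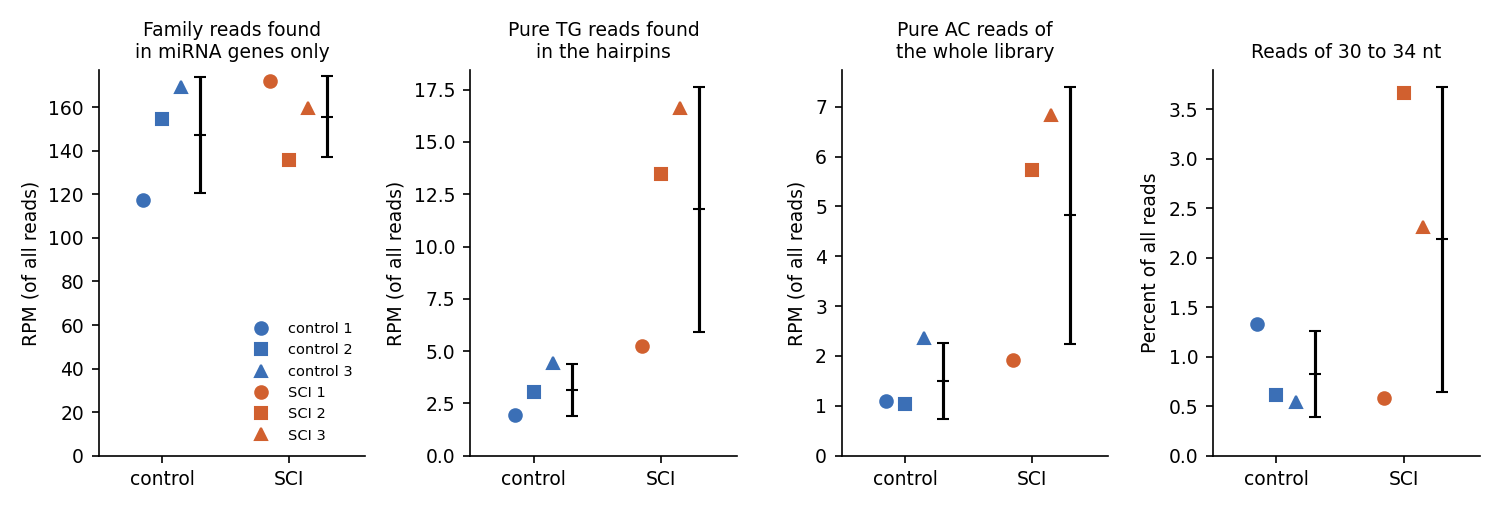
Per library, family reads found in miRNA genes only, TG reads found in the hairpins and AC reads of the whole library (RPM), and reads of 30 to 34 nt (percent of all reads). Points are libraries, and bars are mean ± SD of n = 3. The first panel overlaps between groups (117.6 to 169.2 in control, 135.6 to 171.9 in SCI), while SCI 2 and SCI 3 are highest in the other panels and SCI 1 lies near the controls.

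Single arms were compared with edgeR's quasi-likelihood test over all 703 arms abundant enough to test. No arm of any miRNA passed at a Benjamini-Hochberg adjusted p of 0.05 (0.0% of 703), and 96 arms had an unadjusted p below 0.05 (13.7%). DESeq2 passed 9 of the 703 (1.28%). Of the 60 family arms, 27 were abundant enough to test and 33 were not. Among the 27, 13 had a higher and 14 a lower fitted level in SCI, or 16 and 11 with total count scaling. Their median log2 fold change was -0.0051, beside -0.028 over all arms tested. The groups did not overlap in 5 of the 27, 2 higher and 3 lower in SCI, beside 20.3% of all 703 arms (8.68% higher and 11.7% lower). Unadjusted p lay below 0.05 in 3 of them.

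The arm miR-466q-5p, the TG repeat, had the smallest p of the families. It stood at 1.44, 1.37 and 2.89 CPM in controls 1 to 3 and 4.37, 9.88 and 10.5 CPM in SCI 1 to 3. All SCI values lay above all control values, with SCI 2 and SCI 3 far above SCI 1. The log2 fold change was 2.07 ± 0.40 (SE), with an edgeR adjusted p of 0.122. It passed with DESeq2 (adjusted p = 0.000243), without the filter on low counts (edgeR adjusted p = 1.64e-10) and without SCI 1 (edgeR adjusted p = 0.0265). All its 481 counted reads were also found in genes of other classes, so their origin in Mir466q cannot be told from these reads. The levels leave out 542 reads of this arm that were also found in other merged arms.

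The other arm of the same hairpin, miR-466q-3p, had reads of miRNA length, found nearly only in Mir466q. It stood at 2.57, 1.62 and 3.89 CPM in controls 1 to 3 and 6.18, 4.57 and 4.89 CPM in SCI 1 to 3. All SCI values lay above all control values, and SCI 1 was highest, not SCI 2 or SCI 3. The log2 fold change was 0.89 ± 0.30 (SE), with an unadjusted p of 0.0162 and an edgeR adjusted p of 0.266. The arm did not pass.

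The start of these reads differed from the RefSeq entry for the miRNA, at chr3:28419988-28420007 on the plus strand (GRCm38.p6), printed here to be set against the read above.
mmu-miR-466q: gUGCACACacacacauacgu
The first base of the annotated miRNA is the second base of the most abundant read. Of the 360 reads of the arm, 352 began 1 base earlier than the RefSeq entry and 8 began at it, 4 of them with its full length. The seed of the most abundant read was thus GTGCACA where the entry has UGCACAC. RefSeq entries were matched for 8 of the 81 hairpins, and the other 7 all lie outside the array. Their full mature sequence was read 9 times for miR-466k and 0 times for miR-669n, miR-467g, miR-467h, miR-466j, miR-467f and miR-466i-3p. Reads of any length at the annotated start numbered 27 for miR-466k, 10 for miR-466j and 27 for miR-466i-3p. For miR-669n, miR-467g, miR-467h and miR-467f there were 0. Such reads can also be found in other members.

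Of the tested family arms, miR-669f-5p had the lowest fitted fold change, with levels of 1.38, 1.62 and 1.89 CPM in controls 1 to 3 and 0.858, 0.790 and 1.14 CPM in SCI 1 to 3. The groups did not overlap. The log2 fold change was -0.81 ± 0.31 (SE), with an unadjusted p of 0.0272 and an edgeR adjusted p of 0.288, from 114 reads in all. The 3p arm of the same hairpin stood at 2.81, 1.37 and 2.37 CPM against 1.80, 1.64 and 1.02 CPM, which overlapped. The arm miR-669a/p-5p, with the same seed as miR-669f-5p, stood at 12.4, 15.2 and 10.7 CPM against 9.69, 8.41 and 10.3 CPM, without overlap (log2 fold change -0.42 ± 0.20, edgeR adjusted p = 0.379). The level of miR-669d-5p was 7.66, 7.09 and 6.83 CPM against 6.69, 6.15 and 6.66 CPM. Its lowest control and highest SCI values lay close together.

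The most abundant arm, miR-467a/b-5p, stood at 38.6, 80.8 and 73.2 CPM in controls 1 to 3 and 67.3, 60.9 and 63.5 CPM in SCI 1 to 3. Control 1 was lowest and control 2 highest, with all SCI libraries between them. The log2 fold change was -0.0051 ± 0.26 (SE), with an edgeR adjusted p of 0.995, and -0.26 without control 1 (edgeR adjusted p = 0.452). Next came miR-467e-5p, at 21.4, 18.2 and 23.8 CPM against 29.4, 18.9 and 23.3 CPM, and miR-467d-5p, at 8.02, 14.8 and 11.9 CPM against 9.61, 8.07 and 9.58 CPM. Neither separated the groups.

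The remaining abundant arms all overlapped between groups. The arm miR-669a/o-3p stood at 10.95, 13.6 and 16.6 CPM in control and 16.0, 16.1 and 15.5 CPM in SCI libraries. The 3p arm joined over miR-466, miR-466b, miR-466c, miR-466e and miR-466p stood at 10.1, 7.34 and 11.9 CPM against 14.2, 11.5 and 12.2 CPM, with SCI 2 just below control 3. For miR-466d-3p the levels were 3.95, 2.86 and 5.52 CPM against 6.69, 3.84 and 5.39 CPM. For miR-669c-5p they were 7.30, 10.2 and 9.72 CPM against 12.3, 7.79 and 12.4 CPM, and for miR-669b/m-5p 4.31, 6.96 and 5.26 CPM against 4.37, 4.06 and 4.57 CPM. The 13 other tested arms ranged from 0.226 CPM to 4.63 CPM in single libraries, and none separated the groups.

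**Figure D4:**
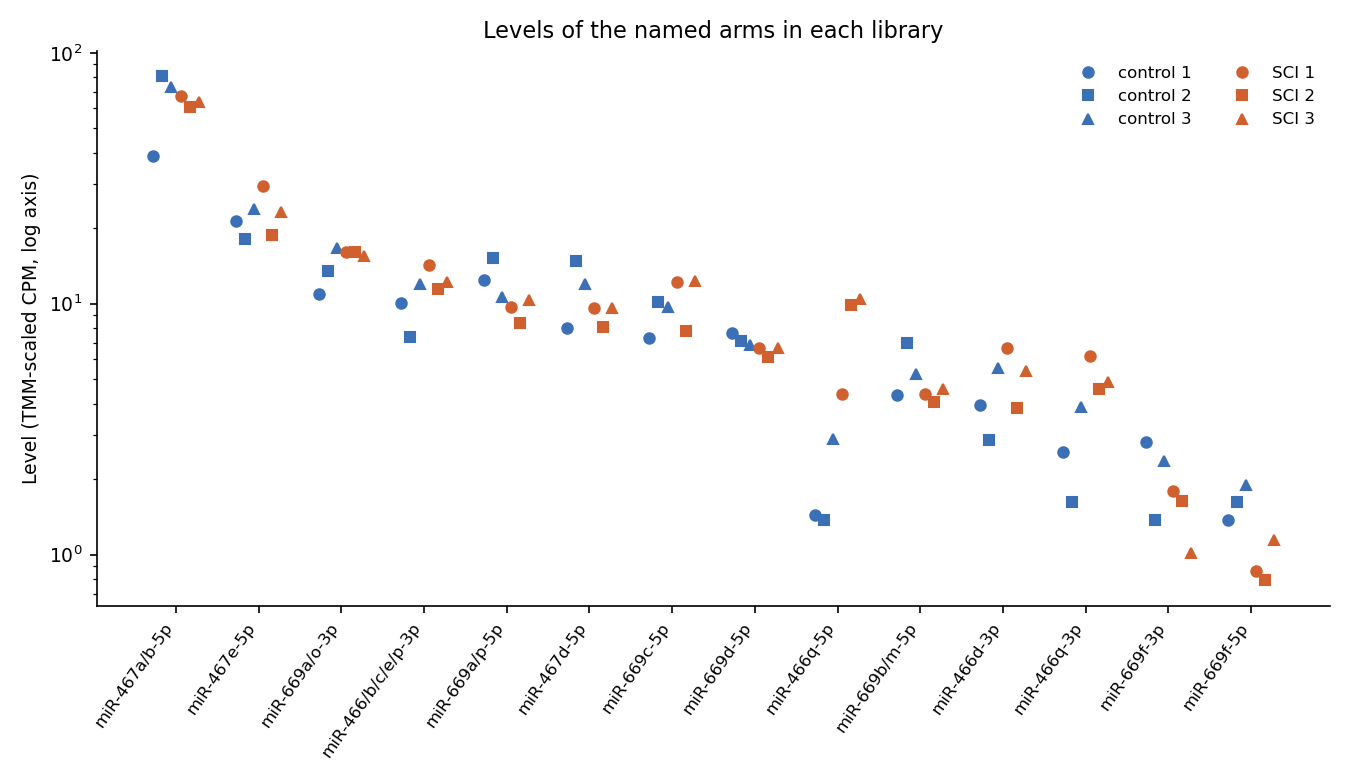
Level of the 14 arms described here in each library, in TMM-scaled CPM on a log axis (blue control, orange SCI, 1 symbol per replicate number, n = 3 per group). The SCI points of miR-466q-5p reach 10.5 CPM against 2.89 CPM for the highest control, while those of miR-467a/b-5p lie between the control points.

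Within miR-467 the 5' end of the reads differed between members, which moves the seed by a base. In miR-467a/b-5p, 93.0% to 94.5% of the reads of each library began at the start of the read printed above. In miR-467e-5p, 58.0%, 58.9% and 60.4% of the reads did so in controls 1 to 3 and 63.6%, 59.6% and 59.7% in SCI 1 to 3. Nearly all others, 35.9% to 41.7%, began 1 base later, and the 95% Wilson intervals were at most 15.8 percentage points wide. In miR-467d-5p, 58.0% to 70.6% began at the main start and 29.4% to 41.1% began 1 base earlier.

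The reads of miR-467c-5p were split over the same 2 starts. Those at the start of its most abundant read were 42.3%, 51.7% and 39.8% in controls 1 to 3 and 26.9%, 35.3% and 29.7% in SCI 1 to 3, with the remainder almost all 1 base later. The groups did not overlap, but each share rests on 29 to 88 reads and its interval was up to 34.2 percentage points wide, so the values are a description with no test, chosen after they were seen. Counted by seed, AAGTGCC took 30.03% of family reads found in miRNA genes only, and TAAGTGT, from the main start of miR-467e-5p, took 6.93%. AAGTGTG, the seed of no arm's most abundant read, took 4.54%. The seed TATACAT was shared by the most abundant reads of 8 arms from miR-297, miR-467 and miR-669, and reads of any arm with this seed took 3.53%.

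Outside the families, the GU-rich miR-574-5p stood at 2.75, 3.36 and 4.63 CPM in controls 1 to 3 and 4.29, 5.76 and 8.44 CPM in SCI 1 to 3, with SCI 1 below control 3 (log2 fold change 0.78 ± 0.30, edgeR adjusted p = 0.288). Its other arm, miR-574-3p, stood at 49.5, 51.1 and 70.9 CPM against 61.0, 66.4 and 61.9 CPM. The arm miR-1187-5p, also GU-rich, had 8, 5 and 20 reads against 6, 29 and 35 and did not pass (edgeR adjusted p = 0.420). Reads in unnamed miRNA genes inside Sfmbt2 but in no member numbered 29, 11 and 60 against 28, 79 and 112. Exons of the host gene Sfmbt2 had 2, 2 and 7 reads against 7, 13 and 16. The counts in Sfmbt2 exons and in the unnamed genes are raw, not scaled to library size. Whether these reads are also found in other genes was not searched.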

How the data were processed

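Per the file headers, the authors deposited raw counts: each library has 1 table listing every distinct read and how often it was seen. The trimmer, aligner and read filters are not given in the sources used here. GRCm38 is the build in the submitters' processing notes. Per the labels, libraries were made with HD adapters from single animals. Reads totalled 22937179, 10585062 and 24480988 for control 1, 2 and 3, and 14628518, 23408028 and 19918863 for SCI 1, 2 and 3.

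Reads of 17 to 34 nt were matched here, sense and without mismatch, to GENCODE M21 (GRCm38) transcripts, which hold exons only. Tailed reads thus did not match. Arms were set by the hairpin midpoint. Arms with the same most abundant read were merged, and reads still found in several merged arms (2.38% to 7.43% of family reads, many of them TG repeats) were left out of arm counts. A merge at 50% shared reads had been listed first and joined arms of different seeds, so it was made the alternative after the arms, but not their group tests, had been seen. RefSeq sequences (GRCm38.p6) matched 8 of 81 members.

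Arm counts from all 6 libraries entered edgeR 4.0.16 in R 4.3.3 (quasi-likelihood, TMM, filterByExpr, minimum count 10), with Benjamini-Hochberg adjustment over 703 arms. SE is the fold change over the root of F. For single values, exact permutation tests were two-sided. Shares of 1 library have 95% Wilson intervals, and a count of 0 a limit of 3 reads. The tables hold no molecular identifiers. The edgeR procedure was also run on simulated counts with the same spread for every arm. That setting is simpler than these libraries, and no result here rests on it. Alternatives were DESeq2 1.42.0, other scalings, no filter, reads of 18 to 26 nt, other read sets, each library left out and a replicate block. Python 3.11.15, pandas 2.3.3, numpy 2.4.6, scipy 1.17.1 and matplotlib 3.10.9 were used.

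Named arms are any that passed, the 12 with most reads, the 6 tested arms of smallest p, and the 4 with at least 100 reads and the lowest share in other genes. The members and lists were chosen with earlier results of these data known.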

Additional observations from a re-analysis of the deposited data

How the results depend on the processing

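No arm of any miRNA passed under DESeq2 size factors, total count scaling, reads of 18 to 26 nt, the 50% merge, or family reads in no other gene or in miRNA genes only, the last chosen after seeing the data. DESeq2 passed 9 arms and the unfiltered edgeR fit passed 31, in each case with 1 of these families, miR-466q-5p. Leaving out 1 library gave 0 to 7 arms, 2 without SCI 1 and 7 without SCI 2, with 0 to 1 of the families. Family arms without overlap, 5 of 27 as reported, were 2 of 22 under the 50% merge (20.3% of all arms tested there), 2 of 18 with reads in no other gene (20.03%) and 8 of 60 unfiltered (13.5%). With 1 library left out, where fewer libraries make separation more frequent, they were 6 to 8 (19.4% to 29.6% of family arms, 24.0% to 35.4% of all arms), and 8 without control 1, control 3 or SCI 2. The cause of these shifts was not tested. Total count scaling moved the median log2 fold change of all arms by 0.12, and that of the family arms to 0.11, with 16 higher and 11 lower.

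The log2 fold change of miR-467a/b-5p changed sign to 0.0077 with DESeq2, 0.0076 with its size factors, 0.0039 under the 50% merge, 0.0010 with reads in miRNA genes only, 0.0086 with reads of 18 to 26 nt, 0.057 with the replicate block and 0.11 with total count scaling, and lay between -0.26 and 0.20 with 1 library left out. Under the 50% merge miR-669c-5p, then joined with other arms, had -0.10. Counting each distinct sequence once gave differences of -106.2 for the families, -12.9 for miR-466 and -43.8 for miR-467 per 1000000 distinct reads. The miR-467 difference ranged from -9.61 to 9.26 RPM and that of miR-669 from -3.40 to 1.99 RPM with 1 library left out, and relative to hairpin reads miR-669 had 1.89. The share of family reads of 20 to 24 nt differed by -3.23 percentage points, and by -0.31 with reads in miRNA genes only.

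Groups share replicate numbers in the labels. Correlations of same-numbered deviations over 703 arms were 0.23, -0.059 and -0.085, and only number 1 correlated best with its own. Values this low cannot decide whether the numbers pair the samples, and the main fit was unpaired. With the replicate block 0 arms passed. Of 60 family arms, 33 had too few counted reads to test, in part where reads found in several arms were left out: miR-466i-5p had 8 counted and 341 left out.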
